A study of Mus musculus with 4 samples.

Results

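Transcripts of 10 lysosomal proteases were followed in mouse pancreatic beta cells: the cysteine cathepsins Ctsb, Ctsl, Ctss, Ctsz, Ctsc, Ctsh and Ctsf, the aspartic protease Ctsd, the serine carboxypeptidase Ctsa and legumain (Lgmn), an asparaginyl endopeptidase. The genes were given as a list of names, which does not hold the related Ctso and Ctsk (both tested, neither called, described separately), and all 10 were found among the 31017 gene names of the deposited count tables. Gene expression had been measured by bulk RNA sequencing of polyA RNA in 4 libraries. The cells came from islets of wild type C57BL/6J male mice at 10 weeks of age, which were cultured overnight, dissociated and sorted by flow cytometry on CD63 into CD63 high beta cells (2 libraries) and CD63 low beta cells (2 libraries). The labels name no gate other than CD63 and leave unsaid whether replicates came from different mice or different sorts. All p-values therefore reflect library-to-library spread alone, which may be technical.

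Lysosomal proteases are made as inactive precursors in the endoplasmic reticulum, receive a mannose 6-phosphate tag in the Golgi and are activated in the acidic lumen of late endosomes and lysosomes, the same membranes that carry the tetraspanin CD63. There they break down proteins delivered by endocytosis and autophagy, and in beta cells also the content of surplus insulin granules, a process called crinophagy. Some members are broad housekeeping enzymes, while others, Ctss above all, are best known from macrophages and other antigen-presenting cells, where Ctss cleaves the invariant chain of class II molecules.

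What the cysteine members share in sequence is the active site, and it is shown here because it defines the family and shows that the 7 transcripts can be told apart. The 9 codons around the active-site cysteine, read 5′ to 3′ from the GENCODE M21 transcripts (GRCm38) and with the cysteine codon in capitals, are as follows.
Ctsb: cagggctcctgcggctctTGTtgggca
Ctsl: cagggccagtgcgggtctTGTtgggcg
Ctss: cagggttcttgtggtgccTGCtgggct
Ctsf: cagggcatgtgtggctccTGCtgggcc
Ctsh: cagggggcctgtggcagcTGCtggact
Ctsz: ccacagtactgtggttccTGCtgggcc
Ctsc: caagaatcttgtggaagcTGCtactca
The cysteine is codon 108 of Ctsb, 138 of Ctsl, 150 of Ctss, 273 of Ctsf, 139 of Ctsh, 94 of Ctsz and 257 of Ctsc, counted from the start codon. Over these 27 bases Ctsl matched Ctsb at 22 positions, Ctsf at 20 and Ctsc at 11, and Ctss matched Ctsf and Ctsh at 20 each. No stretch of 50 bases in the coding transcript examined was shared with a transcript of any other gene for Ctsb, Ctss, Ctsz, Ctsc, Ctsh, Ctsf and Lgmn. Such stretches covered 9.23% of the Ctsl transcript, 1.76% of Ctsa and 38.0% of Ctsd, the last from Gm49369, which lies on the same strand.

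The genes lie on 8 chromosomes in mm10, the build of the deposited tables. Their loci, from the first to the last annotated exon, are Ctsb on chromosome 14 (63122462 to 63145923), Ctsl on 13 (64359337 to 64370890), Ctss on 3 (95526786 to 95556403), Ctsz on 2 (174427493 to 174439039), Ctsc on 7 (88278085 to 88310888), Ctsh on 9 (90054152 to 90076089), Ctsf on 19 (4855129 to 4860912), Lgmn on 12 (102394084 to 102439813), Ctsd on 7 (142375911 to 142388038) and Ctsa on 2 (164832873 to 164841032). Exons of other annotated genes cover 34.4% of the Ctsd exon length, 26.8% of Ctsl (Gm47123, opposite strand), 17.4% of Ctsa (Neurl2 and Pltp, opposite strand), 12.8% of Ctsb (Fdft1, opposite strand) and 0.694% of Ctsz (Nelfcd, opposite strand). The counting used no strand and left out reads that fit several genes, so the levels of these 5 genes are lower bounds in all 4 libraries alike. Exons of Ctss, Ctsc, Ctsh, Ctsf and Lgmn overlap no other gene.

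Total counts were 29249270 to 35003307 per library, so that a library with 0 counts of a gene still allows up to 0.0857 to 0.103 CPM (counts scaled to the library total; the limit is that of 3 counts). The sorting marker Cd63 stood at 1974 and 2077 CPM in CD63 high and at 1186 and 1120.1 CPM in CD63 low, a log2 fold change of 0.81 with SE 0.19 (edgeR quasi-likelihood adjusted p 0.0484), which checks the labels and is not a finding. The call is close to the threshold, and 6 of 12 alternative analyses kept it. Ins2 alone stood at 335904 to 468634 CPM in every library, which goes with the beta cell label but does not measure purity. The CD63 high libraries also carried more transcripts of other cell types, and CD63 high replicate 2 carried the most macrophage transcripts. The values of those transcripts are given below.

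Of the 10 genes, 7 rose in CD63 high cells, none fell, and 3 did not pass the test. Among all 13241 genes tested by edgeR (quasi-likelihood, p adjusted by Benjamini-Hochberg), this difference was called for 2.79% at an adjusted p under 0.05, 2.50% higher and 0.287% lower in CD63 high cells. The 7 were Ctss (14.3-fold), Ctsh (12.7-fold), Ctsc (11.7-fold), Lgmn (5.28-fold), Ctsz (4.38-fold), Ctsb (2.17-fold) and Ctsl (1.96-fold). Ctsd, Ctsa and Ctsf differed by 1.52-fold or less and were not called. All 10 passed the filter on low counts, and their median log2 fold change was 1.63 against -0.01 over all genes tested. The groups did not overlap in any of the 10, with 9 higher and Ctsf lower in CD63 high libraries, where 46.0% of all tested genes did not overlap either, 23.8% higher and 22.2% lower. With library size as the only scaling 3 of the 10 were called (Ctsz, Ctsh and Lgmn), and without CD63 high replicate 2 it was 6. In bulk samples a change in the number of cells of a type and a change in RNA per cell cannot be told apart.

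**Figure D1:**
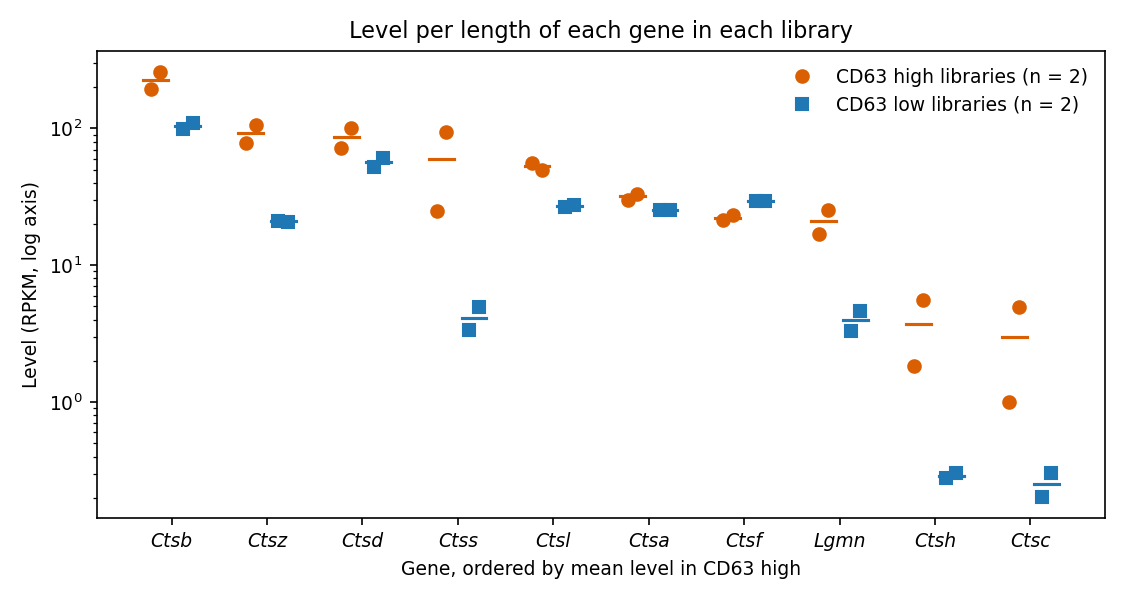
Level per length (RPKM, log axis) of each gene, ordered by its mean in CD63 high libraries. Circles are the 2 CD63 high and squares the 2 CD63 low libraries, and lines are their means. The groups are separate for every gene, Ctsf is the one gene with its CD63 low libraries on top, and the CD63 high libraries lie far apart for Ctss, Ctsh and Ctsc.

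Cathepsins B and L, broad endopeptidases of most cell types, were the most abundant by count. Ctsb stood at 1182 and 1559 CPM in CD63 high and at 601 and 662 CPM in CD63 low libraries. Its lowest CD63 high library was 1.79-fold above its highest CD63 low library (log2 fold change 1.12, SE 0.21, edgeR adjusted p 0.0177). Ctsl stood at 364 and 324 CPM against 173 and 179 CPM, and here the higher CD63 high library was replicate 1. Its log2 fold change was 0.97 (SE 0.19, edgeR adjusted p 0.0231). Each call ended without 1 of the CD63 high libraries and was kept without the other: that of Ctsb ended without CD63 high replicate 2 (log2 fold change 0.90, edgeR adjusted p 0.0830) and that of Ctsl without CD63 high replicate 1 (0.88, edgeR adjusted p 0.0826).

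Cathepsins S, C and H showed the steepest differences, and their CD63 high libraries were the furthest apart. Ctss, the endopeptidase that trims the invariant chain, stood at 33.6 and 127 CPM in CD63 high and at 4.55 and 6.68 CPM in CD63 low libraries. That was 1053 and 3525 counts against 138 and 260 counts. Both CD63 high libraries lay above both CD63 low libraries, by at least 5.03-fold, and replicate 2 stood 3.79-fold above replicate 1. Its log2 fold change was 3.84 (SE 0.52, edgeR adjusted p 0.00422), which became 2.58 when CD63 high replicate 2 was left out and 4.50 when its partner replicate 1 was. Ctsh, an aminopeptidase that also cleaves internally, stood at 8.23 and 25 CPM against 1.25 and 1.36 CPM, with 38 and 53 counts in the CD63 low libraries. Its log2 fold change was 3.66 (SE 0.50, edgeR adjusted p 0.00422) and 2.65 without CD63 high replicate 2. Ctsc, the dipeptidyl peptidase that activates serine proteases of immune cell granules, stood at 5.78 and 28.9 CPM against 1.19 and 1.75 CPM, the widest gap between replicates of the 10 genes. Its log2 fold change of 3.55 (SE 0.64, edgeR adjusted p 0.0152) was 1.97 without CD63 high replicate 2. The calls of Ctss and Ctsc ended in a robust fit of the dispersion (edgeR adjusted p 0.155 and 0.0819), and that of Ctsc with limma-voom (adjusted p 0.0925). Ctsh kept its call in all 12 alternative analyses, at log2 fold changes of 2.65 to 4.25.

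**Figure D2:**
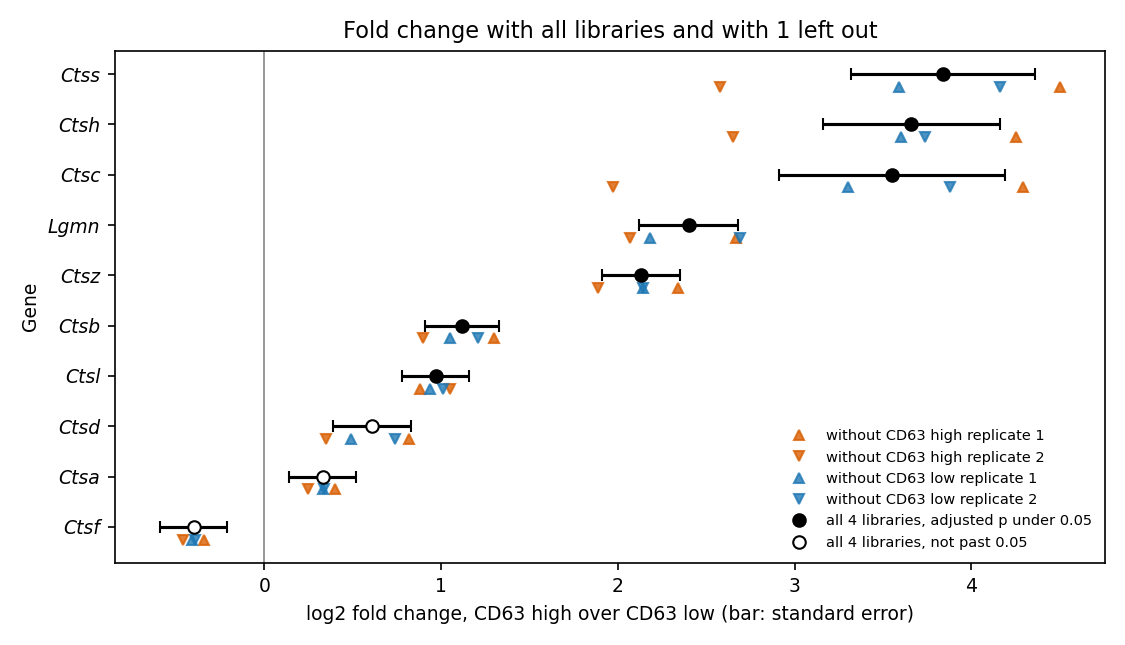
log2 fold change of each gene, CD63 high over CD63 low, with all 4 libraries (circles with standard error, filled where the edgeR adjusted p was under 0.05) and with 1 library left out (triangles). Ctss, Ctsh and Ctsc drop to 2.58, 2.65 and 1.97 without CD63 high replicate 2, and no point of any gene crosses 0.

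Markers of macrophages also rose in CD63 high libraries. Of 24 macrophage markers tested, 19 rose and none fell, with a median log2 fold change of 3.92, and their summed level was 246 and 775 CPM in CD63 high and 53.1 and 71.6 CPM in CD63 low libraries. No marker of the list was at 0 in both CD63 low libraries. Pf4 (log2 fold change 4.83), Cd14 (3.90), Ms4a6d (4.38) and C1qc (4.0) had the smallest p-values. Lyz2, the lysozyme of myeloid cells, stood at 22.0 and 135 CPM against 1.75 and 5.01 CPM. Between CD63 high replicates 2 and 1 the median ratio of the 24 markers was 3.06, beside 3.79 for Ctss, 3.04 for Ctsh and 5.01 for Ctsc and 0.997 over all genes tested. The other called proteases lay lower, at 1.32 for Ctsb, 0.889 for Ctsl, 1.37 for Ctsz and 1.51 for Lgmn. Other marker lists with several tested genes had median ratios of 5.42 (antigen-presenting), 2.04 (delta), 2.03 (acinar) and 1.67 (gamma). Those of beta, alpha, duct and endothelial markers were 1.15, 1.13, 0.846 and 0.551. Without CD63 high replicate 2 the median log2 fold change of the macrophage markers was 2.66. Of 7 tested markers of dendritic and antigen-presenting cells 4 rose and none fell, summing to 132 and 714 CPM against 33.3 and 48.4 CPM, while Flt3 and Cd209a were at 0 in all libraries. The median of these 7 was 3.41, and 1.83 without CD63 high replicate 2. The 4 were H2-Eb1 (3.41), H2-Ab1 (3.40), H2-Aa (3.85) and Cd74 (3.51), which encodes the invariant chain. The part of these cells in the differences of the proteases was not tested. Lymphocyte markers summed to 0.867 to 2.44 CPM in any library, with Cd3e, Cd3g, Ms4a1, Nkg7 and Trac at 0 in all 4, and neutrophil markers to at most 0.638 CPM.

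**Figure D3:**
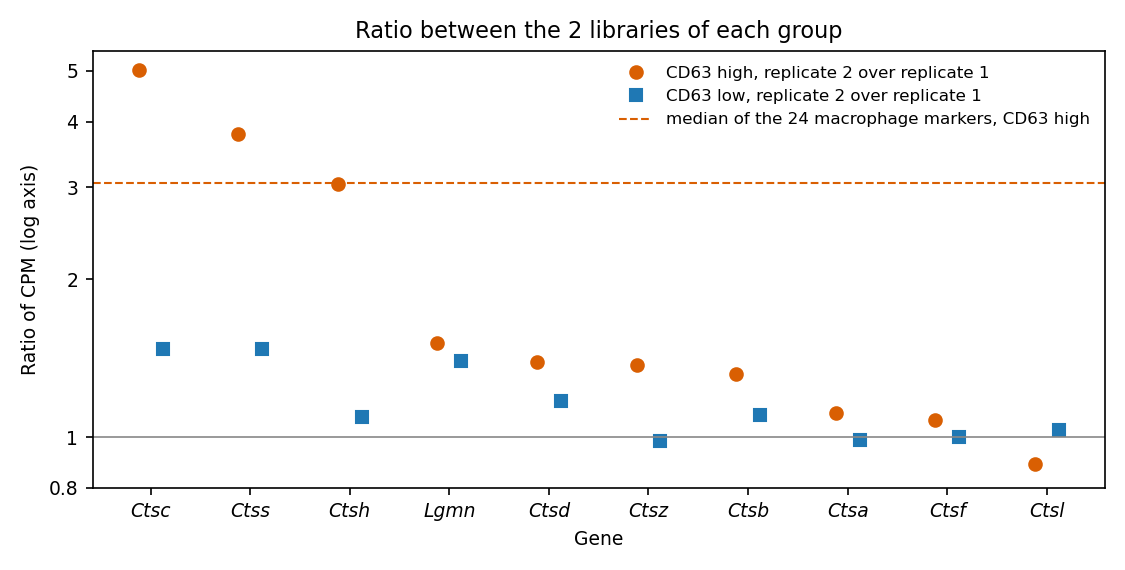
Ratio of CPM between replicates 2 and 1 of each group (log axis) for each gene, CD63 high as circles and CD63 low as squares. Ctsc, Ctss and Ctsh lie at 5.01, 3.79 and 3.04 in CD63 high, while the other 7 genes lie between 0.889 and 1.51. The dashed line at 3.06 marks the median of the macrophage markers in CD63 high, with Ctsh by it and Ctss and Ctsc above it.

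Cathepsin Z and legumain differed by several-fold with closer replicates. Ctsz, a lysosomal carboxypeptidase also called cathepsin X, stood at 112 and 153 CPM in CD63 high and at 30.4 and 30.0 CPM in CD63 low libraries. Its log2 fold change of 2.13 (SE 0.22, edgeR adjusted p 0.00134) had the smallest p of the 10 genes and kept its call in all 12 alternative analyses, at 1.89 to 2.34. Lgmn, which cuts after asparagine and processes other cathepsins into their 2-chain forms, stood at 39.1 and 59.2 CPM against 7.71 and 10.8 CPM. Its log2 fold change of 2.40 (SE 0.28, edgeR adjusted p 0.00283) also kept its call in all 12, at 2.07 to 2.69. Between CD63 high replicates 2 and 1 the ratio was 1.37 for Ctsz and 1.51 for Lgmn. The median ratio of the 24 macrophage markers was 3.06, and most of those that rose lay well above the ratios of Ctsz and Lgmn. Exceptions with replicates as close were Pf4 (1.37), Cd14 (1.29) and Fcgr1 (1.41). The part of macrophages in the difference of Ctsz and Lgmn was not tested.

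The aspartic and serine members and cathepsin F were not called. Ctsd, the main aspartic protease of lysosomes, stood at 170.0 and 236 CPM in CD63 high and at 123 and 144 CPM in CD63 low, a log2 fold change of 0.61 with SE 0.22 (edgeR adjusted p 0.204). Ctsa, which holds beta-galactosidase and neuraminidase in a protective complex, stood at 143 and 158 CPM against 120.1 and 119 CPM (log2 fold change 0.33, SE 0.19, edgeR adjusted p 0.468). Ctsf, an endopeptidase, stood at 42.1 and 45.6 CPM against 57.9 in each CD63 low library, the one gene of the 10 with a negative value (log2 fold change -0.40, SE 0.19, edgeR adjusted p 0.374). None of the 3 was called in any of the 12 alternative analyses, and none changed sign.

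Levels of different genes were compared as RPKM, the CPM divided by the exon length in kilobases. In CD63 high cells the order was Ctsb (227 ± 44.0 RPKM, mean ± SD, n = 2), Ctsz (91.9 ± 20.2), Ctsd (86.4 ± 20.0), Ctss (59.2 ± 48.8), Ctsl (53.0 ± 4.41), Ctsa (31.8 ± 2.26), Ctsf (22.2 ± 1.27), Lgmn (21.1 ± 6.12), Ctsh (3.70 ± 2.64) and Ctsc (2.99 ± 2.82). Neighbours in this order overlapped between libraries, except that Ctsb lay above Ctsz, Ctsl above Ctsa, Ctsa above Ctsf, and Lgmn above Ctsh. As the values of Ctsl and Ctsa are lower bounds, the order between those 2 genes is not set. The value of Ctsd is a lower bound as well, with 34.4% of its exon length covered. Its place in either group holds for the counted reads only. In CD63 low cells Ctsb again came first (104 ± 7.20 RPKM), followed by Ctsd (56.8 ± 6.18), Ctsf (29.3), Ctsl (27.1), Ctsa (25.3) and Ctsz (21). These values did not overlap, but those of Ctsl and Ctsa are lower bounds, so the order of Ctsf, Ctsl and Ctsa is not set by them. Lgmn and Ctss overlapped at 3.32 to 4.92 RPKM, and Ctsh and Ctsc at 0.204 to 0.302 RPKM. Among the 13241 tested genes Ctsb held rank 75 by mean RPKM in CD63 high and 197 in CD63 low cells, Ctsz rank 303 and 1380, and Ctss rank 504 and 4974.

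The summed level of the 10 genes was 497 and 701 RPKM in CD63 high and 261 and 284 RPKM in CD63 low libraries, a ratio of means of 2.20. Ctsb made up 39.3% and 36.8% of this sum in CD63 high libraries, against 38.0% and 38.6% in CD63 low ones, so that its share differed by less than the spread between the CD63 high libraries. The share of Ctsz was 15.6% and 15.2% against 8.08% and 7.33%, and that of Ctss 4.98% and 13.4% against 1.28% and 1.73%. Ctsd, Ctsa and Ctsf together made up 24.9% and 22.4% of it in CD63 high libraries, against 41.0% and 40.8% in CD63 low ones. Shares sum to 100%, so a rise in some members lowers the others. They hold for the counted reads, as the levels of Ctsb, Ctsl, Ctsz, Ctsd and Ctsa are lower bounds.

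**Figure D4:**
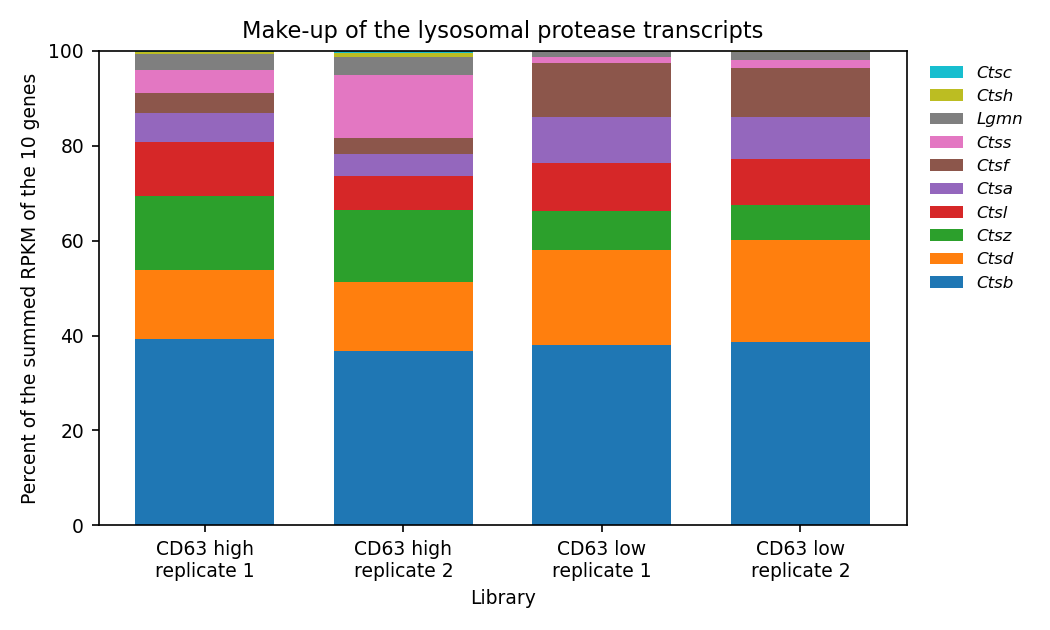
Percent of the summed RPKM of the 10 genes taken by each gene in each library. Ctsb holds 36.8% to 39.3% in all 4 libraries, Ctsz and Ctss are wider in CD63 high, and Ctsd, Ctsa and Ctsf are wider in CD63 low.

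Other cathepsins were nearly absent apart from Ctso. Of 14 further family members 2 were tested and neither was called. Ctso stood at 90.6 and 94.5 CPM in CD63 high and at 108 and 103 CPM in CD63 low (log2 fold change -0.19, SE 0.19). Ctsk, whose gene lies 17.4 kb from Ctss on chromosome 3 and whose enzyme is known from osteoclasts, stood at 1.31 and 1.77 CPM against 0.494 and 0.642 CPM (log2 fold change 1.43, SE 0.70, edgeR adjusted p 0.383). Ctss, at 33.6 and 127 CPM in CD63 high and 4.55 and 6.68 CPM in CD63 low, lay above Ctsk in every library. These CPM are not divided by length. Ctsg, found in neutrophil granules, and the placental cathepsins of chromosome 13 (Ctsj, Ctsm, Ctsq, Ctsr, Cts3, Cts6, Cts7 and Cts8) with Ctsll3 had 0 counts in all 4 libraries. Ctse, named after its values were seen, had 28 counts in CD63 high replicate 2 and 0 in the other libraries.

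Peptidases outside the family, most of them lysosomal, did not pass the test. Of 7 tested, none was called, and the median log2 fold change was 0.14. Nearest to the threshold were Prcp (0.98, edgeR adjusted p 0.409), Scpep1 (0.35, 0.439 in the same test) and Dpp7 (0.22, 0.679). Of the inhibitors 1 of 6 tested rose, Serpinb1a, an inhibitor of neutrophil-type serine proteases, with 84 and 131 counts in CD63 high and 6 and 4 counts in CD63 low (log2 fold change 4.62, SE 0.71, edgeR adjusted p 0.00698). The cystatins, which block cysteine cathepsins, were not called. Cstb, the cytosolic cystatin B, stood at 108 and 146 CPM against 82.1 and 59.6 CPM (log2 fold change 0.84, edgeR adjusted p 0.0945), and Cst7, which is known from immune cells, at 0.383 and 2.67 CPM against 0 and 0.154 CPM.

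Among 7 partners and substrates 1 rose, Cd74, the substrate of Ctss. Cd74 stood at 80.7 and 437 CPM in CD63 high and at 17.7 and 27.7 CPM in CD63 low, a log2 fold change of 3.51 with SE 0.61 (edgeR adjusted p 0.0128), again highest in CD63 high replicate 2. Grn, the progranulin gene, whose product cathepsins cut into granulins, stood at 145 and 135 CPM against 77.0 and 83.6 CPM and missed the threshold (log2 fold change 0.81, SE 0.19, edgeR adjusted p 0.0529). Tmem106b, a lysosomal membrane protein, was at -0.34. Of 15 genes of the mannose 6-phosphate tag and of sorting to lysosomes 1 rose, the endocytic receptor Lrp1, with 91 and 142 counts against 23 and 10 counts (log2 fold change 3.0, SE 0.65, edgeR adjusted p 0.0365). The adaptor Gga2 (-0.70) and the tagging enzyme subunit Gnptg (0.49) were not called, and the list's median was 0.15. Of 10 tested lysosome transcription factors and regulators none was called, and 8 of 10 had log2 fold changes below 0 (median -0.18). Of all 13241 genes tested, 6440 had a value above 0 (median -0.01). Tfeb, the activator of lysosomal genes, stood at 1.82 and 3.29 CPM in CD63 high and at 5.31 and 5.01 CPM in CD63 low, a log2 fold change of -1.02 with SE 0.42 (edgeR adjusted p 0.292). Mitf, of the same family, was at -0.92 and Zkscan3, a repressor of lysosomal genes, at -0.34.

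**Figure D5:**
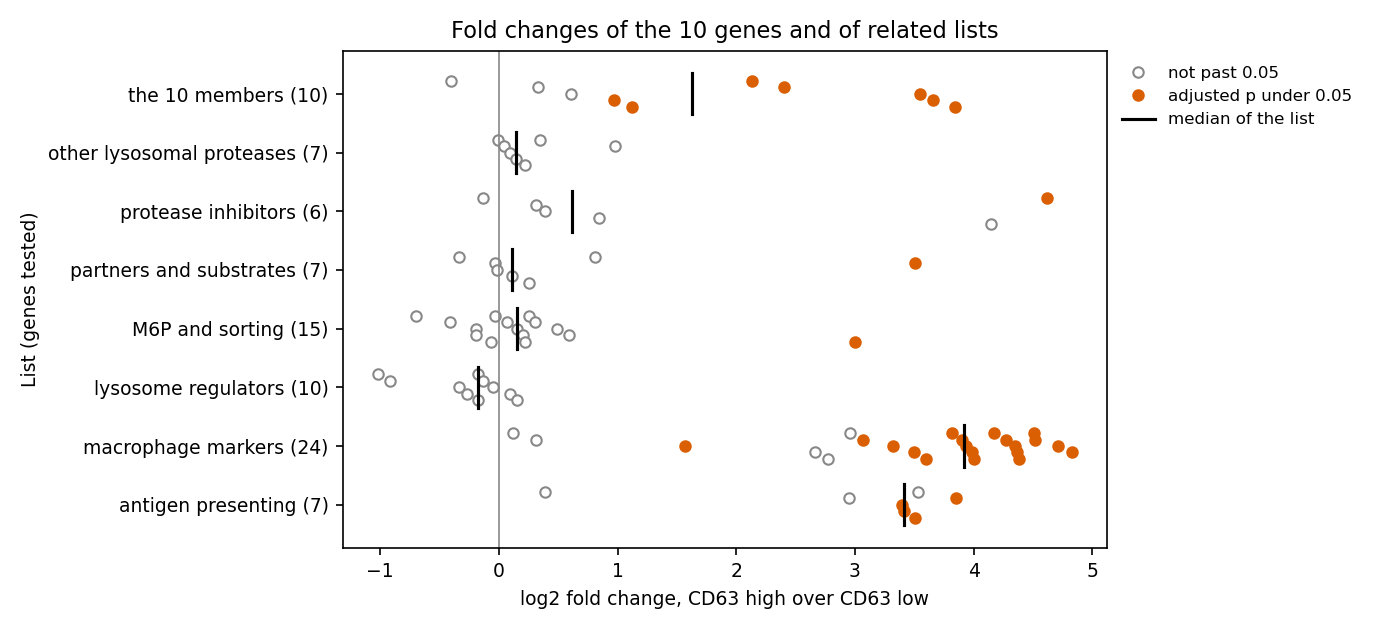
log2 fold change of each tested gene, CD63 high over CD63 low. Lists are the 10 proteases, the other proteases (most of them lysosomal), inhibitors, partners, sorting genes, lysosome regulators, and the macrophage and antigen-presenting markers. Other marker lists and the other cathepsins are not drawn. Filled circles passed an edgeR adjusted p of 0.05, open circles did not, and bars are medians. Besides the 10 proteases (median 1.63) the drawn lists with several filled circles are the macrophage (3.92) and antigen-presenting markers (3.41), while the 5 other drawn lists have medians between -0.18 and 0.61.

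Markers of other cells moved as well. Of the acinar list 3 of 10 rose, among them Rnase1 and Clps with the smallest p-values. The whole acinar list, called or not, summed to 756 and 1309 CPM in CD63 high libraries, against 23.1 and 301 CPM. Alpha cell markers rose in 2 of 7 cases (Gcg and Gc), and the whole alpha list summed to 6000.1 and 6951 against 1306 and 1162 CPM. Gcg alone stood at 4987 and 5646 against 179 and 287 CPM. Tm4sf4, not called, stood at 612 and 871 against 877 and 682 CPM. Delta cell markers rose in 3 of 3 (Sst and Rbp4 lead by p), with the whole list at 452 and 889 against 73.4 and 43.8 CPM. Gamma cell markers rose in 3 of 3 (Ppy and Etv1 lead), with the whole list at 2343 and 4122 against 561 and 282 CPM. Of 12 beta cell markers 3 fell, Slc2a2 and Mafa with the smallest p, 9 were not called, and 3 had a positive log2 fold change. The whole beta list, led by Ins2, summed to 535838 and 620538 against 676010 and 483458 CPM, and these sums overlapped between the groups. None of 3 endothelial, 2 stellate and fibroblast and 6 duct markers tested was called. The part of these cells in the levels of the proteases was not tested.

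In a search of the 7669 genes whose mean log2 CPM reached 3, the profiles nearest to each protease over the 4 libraries were found by the root mean square distance of centred log2 CPM. Nearest to Ctss were Apoe (distance 0.18), Ctsh and the myeloid lysosomal gene Laptm5 (0.21 each). Laptm5 was also nearest to Ctsh (0.03), ahead of Fcer1g (0.19) and Ctss. Nearest to Ctsc were Cd74 (0.06), the scavenger receptor Cd36 (0.09) and H2-Ab1 (0.15). Ctsz lay nearest to the arginase Arg1 (0.11), the tubulin Tubb6 (0.13) and the lipid droplet gene Plin2 (0.20), and Lgmn to Plin2 (0.15), Arg1 (0.23) and Ctsz (0.23). Ctsl lay nearest to Gm379 (0.01), Tubb3 (0.05) and Rab20 (0.06), and Ctsb to Serpina7 (0.10), Rhog (0.11) and Ftl1-ps1 (0.11), a pseudogene name whose reads may belong to its parent gene. With 4 libraries such likeness is a description only.

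Sequences before listed transcription starts were available for 8 of the 10 genes in the RefSeq table (GRCm38.p6), and the 250 bases before each start were searched on both strands for 4 motifs. CACGTG, the E-box core of the element bound by TFEB and its relatives, was found before a listed start of 5 of the 8 genes (Ctsd, Ctsa, Ctsl, Lgmn and Ctsf) and of 6.86% of the 27025 genes in the table. The flanked form TCACGTGA, which contains that core, was found for Ctsd and Ctsa and for 0.907% of all genes. GAGGAAGT, an ETS site of the PU.1 type, was found for Ctsc, on the minus strand, and for 2.79% of all genes. The core of interferon response elements (GAAA, any 2 bases, GAAA) was found for Ctss and for 3.46% of all genes. The windows around the E-box matches, with the core in capitals, show the differing flanks; Ctsd holds a second match 245 bases before its start.
Ctsd, chr7:142387910-142387935, minus strand: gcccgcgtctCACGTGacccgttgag
Ctsa, chr2:164833751-164833776, plus strand: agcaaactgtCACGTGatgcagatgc
Ctsl, chr13:64370741-64370766, minus strand: cgttagaagcCACGTGctgatctaaa
Lgmn, chr12:102439126-102439151, minus strand: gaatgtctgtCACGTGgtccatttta
Ctsf, chr19:4855076-4855101, plus strand: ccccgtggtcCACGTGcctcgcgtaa
The match lay 98 bases before the start for Ctsd, 12 for Ctsa, 236 for Ctsl, 49 for Lgmn and 79 for Ctsf. Of these 5 genes Ctsl and Lgmn were called higher in CD63 high cells and Ctsd, Ctsa and Ctsf were not called. Ctss, Ctsc and Ctsz held no CACGTG in this window. Ctsa and Lgmn each have 2 listed starts, and the match lay before the start further inside the gene, not before the one nearer its edge. The printed matches of Ctsd, Ctsa, Ctsl and Lgmn lie inside the annotated gene, downstream of its outermost annotated edge, while that of Ctsf and the second match of Ctsd lie outside it. The 250 bases before the start of Ctss are shown because it had the largest fold change of the 10 (chr3:95526536-95526785, plus strand, GRCm38.p6), with the match to the interferon response core in capitals, 21 bases before the start.
Ctss: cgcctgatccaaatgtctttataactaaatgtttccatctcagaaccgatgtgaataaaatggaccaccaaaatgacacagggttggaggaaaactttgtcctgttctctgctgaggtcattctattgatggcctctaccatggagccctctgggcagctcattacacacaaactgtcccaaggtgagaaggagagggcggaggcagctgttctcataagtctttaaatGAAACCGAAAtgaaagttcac
A match describes the letters of the window and shows neither a bound site nor a cause.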

How the data were processed

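The authors deposited, for every library, unnormalised read counts by gene name. Per the file headers these came from featureCounts 1.6.2, which counted read pairs on either strand, without an option for multi-mapping reads, against the gene models of Cell Ranger's mm10 3.0.0 reference. The submitters' processing notes list STAR 2.6.0c and FastQC too, without saying what each did. The labels' protocols give SMARTer v4 low-input amplification and Nextera XT, and name no molecular identifiers, so floors cover counting error only.

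Groups came from the sample titles. With edgeR 4.0.16 (R 4.3.3), filterByExpr kept 13241 genes at a minimum count of 10 and a total of 15; they were scaled by TMM (factors 0.921 to 1.11) and tested with glmQLFit and glmQLFTest on group alone, with Benjamini-Hochberg adjustment over all genes. The fit was tested on simulated data. SE was taken as the size of the log2 fold change divided by the root of its F statistic. CPM is TMM-scaled, and RPKM uses the deposited exon length, the union over isoforms. The replicate counts differed beyond sampling noise (chi-square per degree of freedom 37.3 and 73.7). All members and Cd63 were named. Of each related list the called genes were named, filled up to 3 by smallest p. Of the macrophage and antigen-presenting lists 4 were named, and of other marker lists with a call 2. Near each called member 3 profiles were named. Members and lists were chosen with earlier results of these data known. Alternatives were DESeq2 1.42.0, limma-voom (limma 3.58.1), library size or RLE scaling, no filter, a robust fit, a replicate block and leaving out each library.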

Additional observations from a re-analysis of the deposited data

How the results depend on the processing

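Over 12 alternatives for each of the 10 genes, 111 of 120 fold changes kept direction and side of the threshold, 9 lost the call and none reversed. Ctsd, Ctsa and Ctsf had no call to lose, so all 9 losses fell on the 7 called genes. With library size as the only scaling Ctsb, Ctsl, Ctss and Ctsc lost it (edgeR adjusted p 0.0956, 0.124, 0.0570 and 0.104), leaving 3 of the 10 called. The other 5 losses stand in the report. Leaving out 1 library left 6 to 7 of the 10 called. Where 1 library of a group was left, it was assumed to vary like the other group.

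The count of all genes called was 369, and 686 with DESeq2, 67 with library size alone, 940 without a filter, and 450 to 769 with 1 library left out. Cd63 had a log2 fold change of 0.77 with library size alone, 0.81 in the robust fit and 0.81 with the replicate block, and 0.78 to 0.85 with 1 library left out. Its adjusted p was over 0.05 in these first 3 and in 3 of the 4 libraries left out. The replicate block called 616 genes and 7 of the 10. Same-numbered libraries deviated with a correlation of -0.101 over genes. With 2 libraries per group this is a single value, which cannot decide whether libraries were paired. The deposited tables number the CD63 low libraries differently from the titles, which were used here, so the numbering itself is in doubt. A crossed pairing, added after the data were seen, called 942 genes and 7 of the 10. As shares of counts without length, 17 of 20 shares moved by more than their spread, and that of Ctsb was 56.9% in CD63 high and 54.1% in CD63 low. Low counts limit Ctsc and Ctsh most, with 36 to 68 counts in CD63 low libraries.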
